A study of Mus musculus with 24 samples.

Results

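The 53 genes described here encode proteins of ribosome biogenesis, from transcription of ribosomal DNA to late maturation of both subunits. They were taken as a named list of mouse symbols. Each symbol matched 1 gene identifier, so that 53 of the 55487 genes in the tables were followed, in 24 RNA sequencing libraries of colon and colorectal tumour. All 53 passed the filter on low counts, and the lowest level of any of them in any library was 6.83 CPM (expected counts scaled to a common library size with TMM factors).

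The mice were of strain C57BL/6 and were either wild type (WT) or carried a knockout of Axin1 in intestinal epithelial cells (KO). The Axin1 protein is a scaffold on which beta-catenin, the effector of Wnt signalling, is phosphorylated for degradation. Of each genotype there were 3 libraries from untreated mice on water, 3 from mice given dextran sulphate sodium (DSS, which injures the colonic epithelium) and killed at day 7, and 3 from mice given DSS and killed at day 13. A further 3 colorectal tumours per genotype came from mice that had received azoxymethane and DSS (AOM/DSS, a carcinogen combined with colitis). The series describes the 3 libraries of a group as biological replicates. What drives the deletion, the ages and sexes of the mice, the DSS dose and tumour age were not stated in the labels. The colon samples were whole tissue, so they also held cells in which Axin1 was not targeted, and the tumours cannot be told apart from their treatment with AOM.

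Ribosomes are built in the nucleolus. RNA polymerase I copies ribosomal DNA into a long precursor, small nucleolar ribonucleoproteins (snoRNPs) modify its nucleotides, and a large assembly, the small subunit processome, cuts and folds the part that becomes the small (40S) subunit. Other factors build the large (60S) subunit, and most leave before the subunits are used. In the intestine, ribosome production is high in dividing cells such as those of the crypt, and many of these genes are known targets of the transcription factor Myc.

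The lowest library total was 15653300 expected counts, the median 23642270 and the highest 28066996. Axin1 was at 13.5 to 19.7 CPM in the 12 KO libraries and at 47.4 to 58.7 CPM in the 12 WT libraries. The epithelial genes Epcam (at least 1025 CPM) and Vil1 (at least 295 CPM) were well expressed in all 24 libraries. Smooth muscle genes (10, summed) were at 13585 CPM in WT day 7 replicate 2, against 2387 to 9294 CPM in the other colon libraries and 193 to 379 CPM in the tumours. Genes of squamous epithelium (8, summed) reached 5289 CPM in WT day 13 replicate 3, 1200 CPM in KO day 13 replicate 1 and 670 CPM in KO tumour replicate 2, and were at 139 CPM or less elsewhere. Proliferation genes (12, summed) were at 606 CPM in untreated KO replicate 3 and at 225 and 263 CPM in the other untreated KO libraries. Y-linked transcripts were present in 2 of 3 untreated WT libraries, all 3 untreated KO, no WT day 7, 1 KO day 7, all 3 WT day 13, no KO day 13, and 2 of 3 tumours of each genotype. At day 13 the sex of the mice and the genotype therefore cannot be told apart.

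The summed level of the 53 genes was higher at DSS day 7 and in tumours than in untreated colon, and lay closer to the untreated level at day 13. In untreated WT colon it was 2124, 2003 and 2112 CPM, and in untreated KO colon 2121, 2267 and 1996 CPM. At day 7 the WT libraries held 3212, 2967 and 2974 CPM and the KO libraries 3808, 3413 and 4196 CPM. All 6 day 7 libraries lay above all 6 untreated ones, and each KO day 7 library lay above each WT day 7 library. At day 13 the sum was 2543, 2386 and 2236 CPM in WT and 1995, 1984 and 2494 CPM in KO. The WT tumours held 3396, 3701 and 4168 CPM and the KO tumours 4113, 3486 and 4012 CPM, near the levels of the KO day 7 libraries on this scale. In bulk tissue, more cells of a type and more RNA per cell cannot be told apart.

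Relative to the untreated WT mean, the mean sum was 1.47-fold at WT day 7, 1.83-fold at KO day 7, 1.15-fold at WT day 13, 1.04-fold at KO day 13, 1.81-fold in WT tumours and 1.86-fold in KO tumours. On the scale of the deposited TPM (a share of transcripts, scaled per gene length), the folds were 1.45 at WT day 7 and 1.73 at KO day 7. In tumours they were 2.12 in WT and 2.39 in KO. The 40 cytosolic ribosomal proteins listed, which are the structural products that these factors assemble, did not follow: their summed level was 22991, 24381 and 23283 CPM in untreated WT colon, 24093, 13995 and 17707 CPM at WT day 7 and 22889, 22324 and 23705 CPM in WT tumours. The library with the lowest of these sums, WT day 7 replicate 2, is the one with the most smooth muscle RNA, and the part of that in the sum was not tested.

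**Figure D1:**
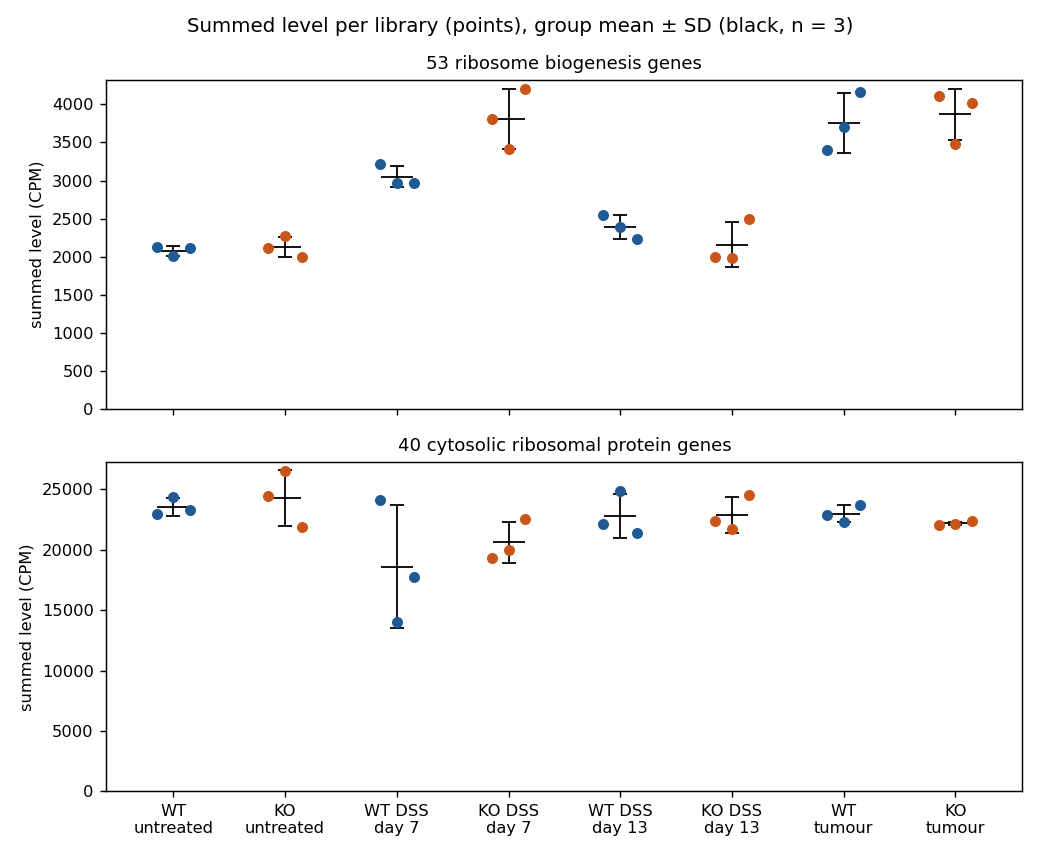
Summed level (CPM, y axis from 0) of the 53 ribosome biogenesis genes (top) and of 40 cytosolic ribosomal protein genes (bottom) in each library, by group; points are libraries (blue WT, orange KO) and black bars are the mean ± SD of 3. The upper panel rises from 1996 to 2267 CPM in untreated colon to between 2967 and 4196 CPM at day 7, while the lower panel shows no such rise.

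Per gene length, the 53 genes spanned a wide range in untreated WT colon. The highest were the abundant nucleolar proteins Npm1 (mean 347 TPM) and Ncl (140 TPM), which act as chaperones and RNA-binding proteins of the nucleolus. They were followed by the ribosomal DNA binding factor Ubtf (76.9 TPM) and the box C/D protein Nop58 (66.7 TPM). At the other end stood Rrp12, a factor of subunit export and processing, at 2.63 TPM and Wdr12, a 60S factor, at 4.26 TPM. In WT tumours Npm1 (634 TPM) and Ncl (260 TPM on average) were again the highest, and Rrp12 (8.94 TPM) was again the lowest.

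Promoters of 48 of the 53 genes were matched in RefSeq windows of 250 bases before to 50 after the start (GRCm38.p6). Rrp12, Bop1, Fbl, Rrs1 and Npm1 were not matched. The windows were searched for the E-box CACGTG, the palindromic site that Myc and Max are known to bind, and for CCGGAAGT on either strand, a site of ETS family factors. The E-box letters were found in 11 of 48 members (22.9%), against 8.09% of the 27025 genes in the promoter table and 10.9% of the 12872 of them that were tested here. The ETS letters were found in 14 of 48 (29.2%), against 4.31% and 7.56%. The 2 motifs share no stretch in which a match to one implies a match to the other. A match is a description of letters, not a bound site.

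The windows of 5 members are printed with any E-box in capitals. Nop2 (E-box from -60 relative to the start) and Pes1 (from 2) hold an E-box and rose at day 7 and in tumours. Nop56 is shown as a member among those that rose most, with no E-box in its window. Utp20 (E-box from 37) and Tsr1 (from 24) hold an E-box and were not called higher in any comparison with untreated colon. The Nop2 window is chr6:125131633-125131932 on the plus strand, that of Pes1 is chr11:3963725-3964024 (plus), that of Nop56 is chr2:130274162-130274461 (plus), that of Utp20 is chr10:88826765-88827064 (minus) and that of Tsr1 is chr11:74897830-74898129 (plus).
Nop2: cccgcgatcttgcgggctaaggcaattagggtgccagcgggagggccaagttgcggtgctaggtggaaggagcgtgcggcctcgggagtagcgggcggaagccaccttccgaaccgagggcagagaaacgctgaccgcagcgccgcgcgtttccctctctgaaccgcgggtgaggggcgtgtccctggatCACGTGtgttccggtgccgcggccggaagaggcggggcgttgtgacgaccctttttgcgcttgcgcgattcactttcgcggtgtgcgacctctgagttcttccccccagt
Pes1: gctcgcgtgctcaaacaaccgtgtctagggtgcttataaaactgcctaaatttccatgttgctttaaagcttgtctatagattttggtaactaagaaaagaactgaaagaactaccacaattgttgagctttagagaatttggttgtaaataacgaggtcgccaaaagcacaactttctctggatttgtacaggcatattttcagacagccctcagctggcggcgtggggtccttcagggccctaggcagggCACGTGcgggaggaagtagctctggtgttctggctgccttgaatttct
Nop56: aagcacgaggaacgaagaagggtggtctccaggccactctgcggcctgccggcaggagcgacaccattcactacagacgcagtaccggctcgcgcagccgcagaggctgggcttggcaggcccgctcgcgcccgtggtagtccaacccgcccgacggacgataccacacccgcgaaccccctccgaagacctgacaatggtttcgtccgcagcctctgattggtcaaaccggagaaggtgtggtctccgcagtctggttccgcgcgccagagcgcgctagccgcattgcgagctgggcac
Utp20: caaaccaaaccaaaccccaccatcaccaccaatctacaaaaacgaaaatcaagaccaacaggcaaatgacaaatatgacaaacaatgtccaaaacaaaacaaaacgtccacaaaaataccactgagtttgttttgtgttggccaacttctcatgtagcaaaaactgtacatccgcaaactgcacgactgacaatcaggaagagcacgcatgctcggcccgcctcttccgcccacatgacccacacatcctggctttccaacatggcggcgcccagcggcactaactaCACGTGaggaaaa
Tsr1: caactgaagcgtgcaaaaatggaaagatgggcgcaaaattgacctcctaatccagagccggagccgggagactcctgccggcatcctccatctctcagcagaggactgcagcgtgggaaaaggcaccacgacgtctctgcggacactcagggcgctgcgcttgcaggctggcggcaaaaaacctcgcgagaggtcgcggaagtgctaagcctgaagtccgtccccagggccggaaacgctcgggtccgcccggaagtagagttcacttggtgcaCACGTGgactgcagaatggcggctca
Members with the E-box letters were called higher in 8 of 11 cases in WT and 9 of 11 in KO at day 7, and members without them in 26 of 37 and 33 of 37. In tumours the counts were 9 of 11 with and 34 of 37 without in each genotype.

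The first comparison asked how acute DSS injury changed these genes in WT colon. At day 7, 38 of 53 were higher than in untreated WT colon and none was lower, against 8.52% higher and 7.77% lower of the 18102 genes tested (edgeR quasi-likelihood test, Benjamini-Hochberg adjusted p under 0.05; 1 member, Ubtf, was lower at an unadjusted p under 0.05, and DESeq2 called 42 higher and none lower). The median log2 fold change of the members was 0.66, and that of all genes 0.03. The libraries of the 2 groups did not overlap for 47 members, all higher at day 7, against 18.7% of all genes.

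Values in parentheses after the levels are log2 fold changes with their SE. The members with the smallest p were Rrs1, Gar1, Rrp12 and Bysl. Rrs1, which helps to bring the central protuberance into the 60S subunit, was at 14.1, 16.2 and 16.3 CPM untreated and 42.7, 40.8 and 34 CPM at day 7, a log2 fold change of 1.28 ± 0.15 SE, adjusted p = 0.00064. Gar1, a core protein of the box H/ACA snoRNPs that guide pseudouridylation, went from 9.44, 8.14 and 9.95 to 28.5, 26.1 and 22.7 CPM (1.43 ± 0.17 SE, adjusted p = 0.00064). In both genes the lowest day 7 library was more than 2 times the highest untreated one. Rrp12 went from 7.45, 6.83 and 9.2 to 23.4, 24 and 21.1 CPM (1.49 ± 0.19 SE, adjusted p = 0.000677). Bysl, a factor of late 40S maturation, went from 11.4, 14 and 14.8 to 31.1, 34.1 and 32.1 CPM (1.22 ± 0.16 SE, adjusted p = 0.000705). None of the day 7 values of these 4 genes fell within the untreated range.

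By role, all 3 box C/D proteins rose (median log2 fold change 1.0). Fbl, or fibrillarin, the methyltransferase of these particles, was at 29.3, 30.5 and 36.8 CPM untreated and 81.9, 52.8 and 65.5 CPM at day 7 (1.0 ± 0.16 SE, adjusted p = 0.00176). Of the 4 box H/ACA proteins 3 rose (median 0.98). Dkc1, the pseudouridine synthase, went from 23, 17.8 and 21.6 to 34.5, 31.4 and 36.6 CPM (0.66 ± 0.16 SE, adjusted p = 0.0135). Its adjusted p was above 0.05 in 3 of 13 alternatives: without untreated WT replicate 2 (0.0643), with the Y-linked level as a covariate (0.0695) and with only the groups compared in the fit (0.0568). Nop10, the smallest of the set, was at 42.6, 20.7 and 25.9 CPM at day 7, with replicate 1 alone far above the untreated range.

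Of the 5 genes of RNA polymerase I transcription, Polr1a and Rrn3 rose and 3 were not called (median 0.38). Polr1b, the second large subunit of the enzyme, was at 19.9, 17.9 and 20.8 CPM untreated and 24.2, 29.8 and 25.7 CPM at day 7 (0.38 ± 0.18 SE, adjusted p = 0.153). The groups did not overlap, but the difference did not pass the test. Of the nucleolar proteins, Nolc1, Gnl3 and Ddx21 rose, and the 2 most abundant did not pass: Ncl went from 354, 341 and 334 to 483, 476 and 426 CPM (0.37 ± 0.12 SE, adjusted p = 0.0512), and Npm1 from 285, 272 and 273 to 405, 265 and 299 CPM (0.17 ± 0.15 SE, adjusted p = 0.457). The Npm1 value rested on replicate 1 of day 7, without which its log2 fold change was -0.03.

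Of the 5 t-UTP proteins, the part of the processome that loads first on the nascent precursor, 4 rose (median 0.68). Heatr1, the largest of them, went from 21, 15.1 and 19.2 to 37.6, 38.5 and 39 CPM (1.0 ± 0.20 SE, adjusted p = 0.0049), with day 7 libraries that lay close together. Its adjusted p was above 0.05 in 1 of 13 alternatives, that with the Y-linked level as a covariate (0.0565). Of the 10 other processome genes 5 rose (median 0.45), led by Noc4l (log2 fold change 1.34). Utp20, a very large scaffold protein of the processome, was at 106, 61 and 127 CPM untreated and 97.5, 46.7 and 99.7 CPM at day 7 (-0.33 ± 0.37 SE, adjusted p = 0.574), and its spread within each group exceeded the difference. Of the 6 genes of later 40S maturation 4 rose (median 0.62). Nob1, the nuclease that makes the last cut of the small subunit RNA, was at 16.8, 16.6 and 16.6 CPM in untreated WT and 23.9, 17.8 and 18.4 CPM at WT day 7 (0.21 ± 0.15 SE, adjusted p = 0.331).

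Of the 60S factors 14 of 15 rose (median 0.77), and Noc3l was at 0.44 with an adjusted p of 0.0903. Pes1, which forms a complex with Bop1 and Wdr12, went from 44, 40.6 and 41.9 to 65.7, 51.4 and 57 CPM (0.41 ± 0.11 SE, adjusted p = 0.0196). This was the smallest called fold change among the 60S factors, and its adjusted p was above 0.05 in 6 of 13 alternatives, among them those without any single untreated WT library (0.0506 to 0.0745) or without WT day 7 replicate 1 (0.0752). Nop2, a methyltransferase of the large subunit RNA, went from 20.9, 23 and 25.3 to 41, 43.8 and 42.9 CPM (0.83 ± 0.15 SE, adjusted p = 0.00319).

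With the Y-linked level as a covariate 23 members were called higher instead of 38, and the median was again 0.66. The untreated and day 7 WT groups differed in how many libraries held Y-linked transcripts (2 and none). Myeloid markers (10, summed) were also higher at WT day 7, at 144, 319 and 103 CPM against 53.7 to 62.6 CPM untreated, and 12 proliferation genes summed to 477 to 952 CPM against 366 to 577 CPM. The part of these in the rise of the 53 genes was not tested.

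**Figure D2:**
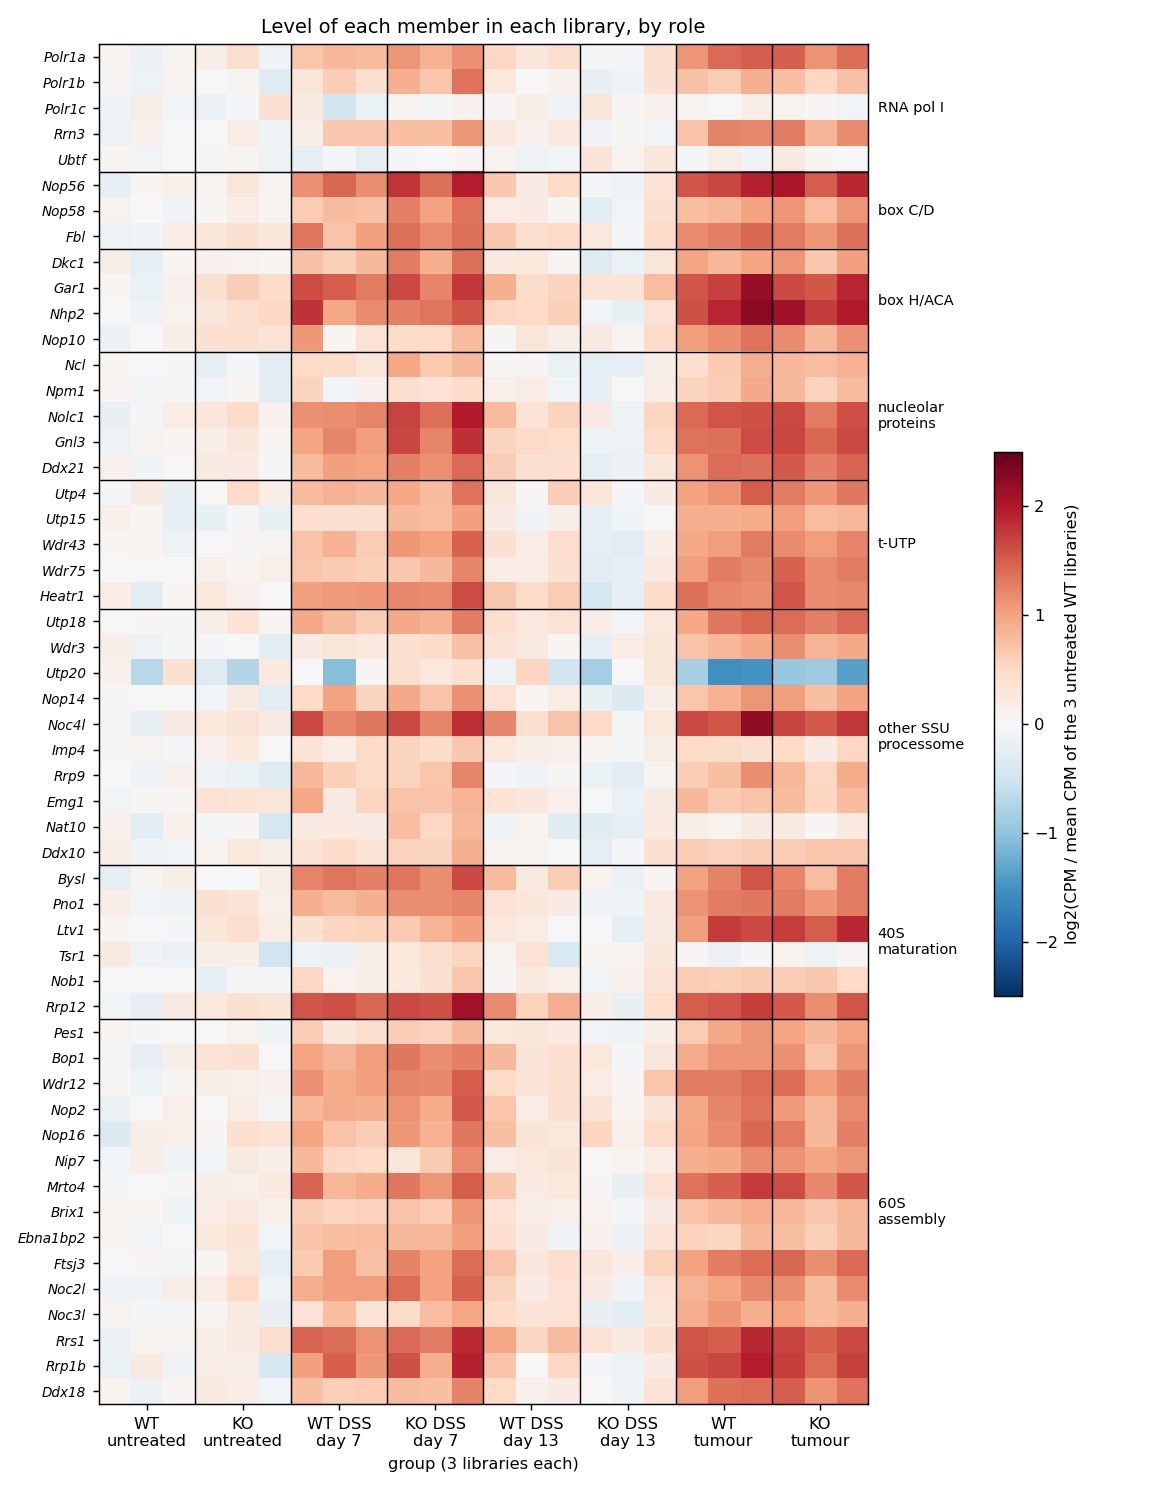
Level of each of the 53 members (rows, grouped by role) in each of the 24 libraries (columns, grouped by genotype and condition) as log2 of the CPM over the mean of the 3 untreated WT libraries; red is higher, blue lower. Day 7 and tumour columns are red for most rows, day 13 columns are pale, and Utp20 is blue in all 6 tumours.

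In KO colon 47 of 53 members rose at day 7 and none fell, against 8.57% higher and 4.07% lower of all genes (edgeR; no member was lower at an unadjusted p under 0.05, and DESeq2 called 48 higher and none lower). The median log2 fold change was 0.98, with -0.04 for all genes. The libraries did not overlap for 51 members, against 18.8% of all genes. The rises were led by Nop56, Wdr43, Gnl3 and Utp15.

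Nop56, a core box C/D protein, went from 44.9, 52 and 45.1 CPM in untreated KO to 148, 111 and 168 CPM at day 7 (1.59 ± 0.17 SE, adjusted p = 0.000126). Gnl3, or nucleostemin, a nucleolar GTPase known from stem and cancer cells, went from 22.8, 25.3 and 21.5 to 66, 47.9 and 73.4 CPM (1.43 ± 0.17 SE, adjusted p = 0.000163). In both genes replicate 2 was the lowest day 7 library and was still well above all untreated ones. Of the t-UTP proteins, Wdr43 went from 36, 36.4 and 37.4 to 75.8, 71.6 and 99 CPM (1.17 ± 0.13 SE, adjusted p = 0.000163), and Utp15 from 16, 17.5 and 16 to 32, 30.9 and 37.1 CPM (1.02 ± 0.12 SE, adjusted p = 0.000169).

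All 5 t-UTP proteins, all 5 nucleolar proteins, all 3 box C/D proteins and all 15 60S factors rose in KO at day 7, with medians of 1.02, 1.14, 1.12 and 1.0. Fbl went from 39.7, 42.2 and 39.1 to 83.3, 72.8 and 83.9 CPM (0.99 ± 0.16 SE, adjusted p = 0.000994). Heatr1 went from 22.2, 19.9 and 18.3 to 42.1, 41.8 and 57.1 CPM (1.23 ± 0.20 SE, adjusted p = 0.00116), and Ncl from 295, 337 and 283 to 667, 539.6 and 602 CPM (0.99 ± 0.12 SE, adjusted p = 0.000233). In all 3 genes the groups were far apart. Npm1 changed less, from 264, 285 and 231 to 369, 357 and 382 CPM (0.51 ± 0.15 SE, adjusted p = 0.0355). Its adjusted p lay above 0.05 in 8 of 13 alternatives, among them those without untreated KO replicate 1 (0.0817) or 3 (0.129) and without any single KO day 7 library (0.0696 to 0.11).

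Pes1 went from 42.4, 44.9 and 39.1 to 64.7, 62.5 and 73.5 CPM (0.67 ± 0.11 SE, adjusted p = 0.00101), and Nop2 from 23.2, 26.1 and 22.4 to 50.4, 43.6 and 66.7 CPM (1.17 ± 0.15 SE, adjusted p = 0.000313). Replicate 3 was the highest day 7 library for both. Of the box H/ACA proteins 3 of 4 rose (median 1.03), with Dkc1 going from 22.5, 22.2 and 21.6 to 50.8, 38.8 and 54 CPM (1.12 ± 0.16 SE, adjusted p = 0.000507). Of the RNA polymerase I genes 3 of 5 rose (median 0.85). Polr1b went from 19.4, 20.6 and 15.7 to 36.3, 31.5 and 50.05 CPM (1.08 ± 0.18 SE, adjusted p = 0.00141).

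Of the other processome genes 8 of 10 rose (median 0.75), and of the 40S maturation genes 5 of 6 (median 0.73). Utp20 was at 78.4, 59 and 117 CPM untreated and 132, 118 and 131 CPM at day 7 (0.59 ± 0.38 SE, adjusted p = 0.344), so that no day 7 library fell in the untreated range although the test was not passed. Nob1 went from 14.2, 16.1 and 16.3 to 19.9, 21.7 and 26.5 CPM (0.55 ± 0.15 SE, adjusted p = 0.0221). Its adjusted p was above 0.05 in 5 of 13 alternatives. Among them were those without untreated KO replicate 1 (0.0855) or KO day 7 replicate 3 (0.113) and that with the Y-linked covariate (0.157). The 6 members not called in KO at day 7 were Polr1c, Ubtf, Nop10, Utp20, Emg1 and Tsr1. Of these, all but Emg1 were also not called in WT.

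In KO the smooth muscle sum was 4385 to 5264 CPM at day 7 and 4084 to 4651 CPM untreated, and the myeloid sum was 37.3 to 46.9 CPM at day 7 and 46.3 to 62.8 CPM untreated. The smooth muscle ranges overlapped, and the myeloid sum was not higher at day 7 than the untreated range. The proliferation genes were at 927 to 1398 CPM at day 7, above the 225 to 606 CPM of untreated KO, and 9 of 12 were called higher. Their part in the result was not tested. With the Y-linked covariate 39 of the 53 were called.

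**Figure D3:**
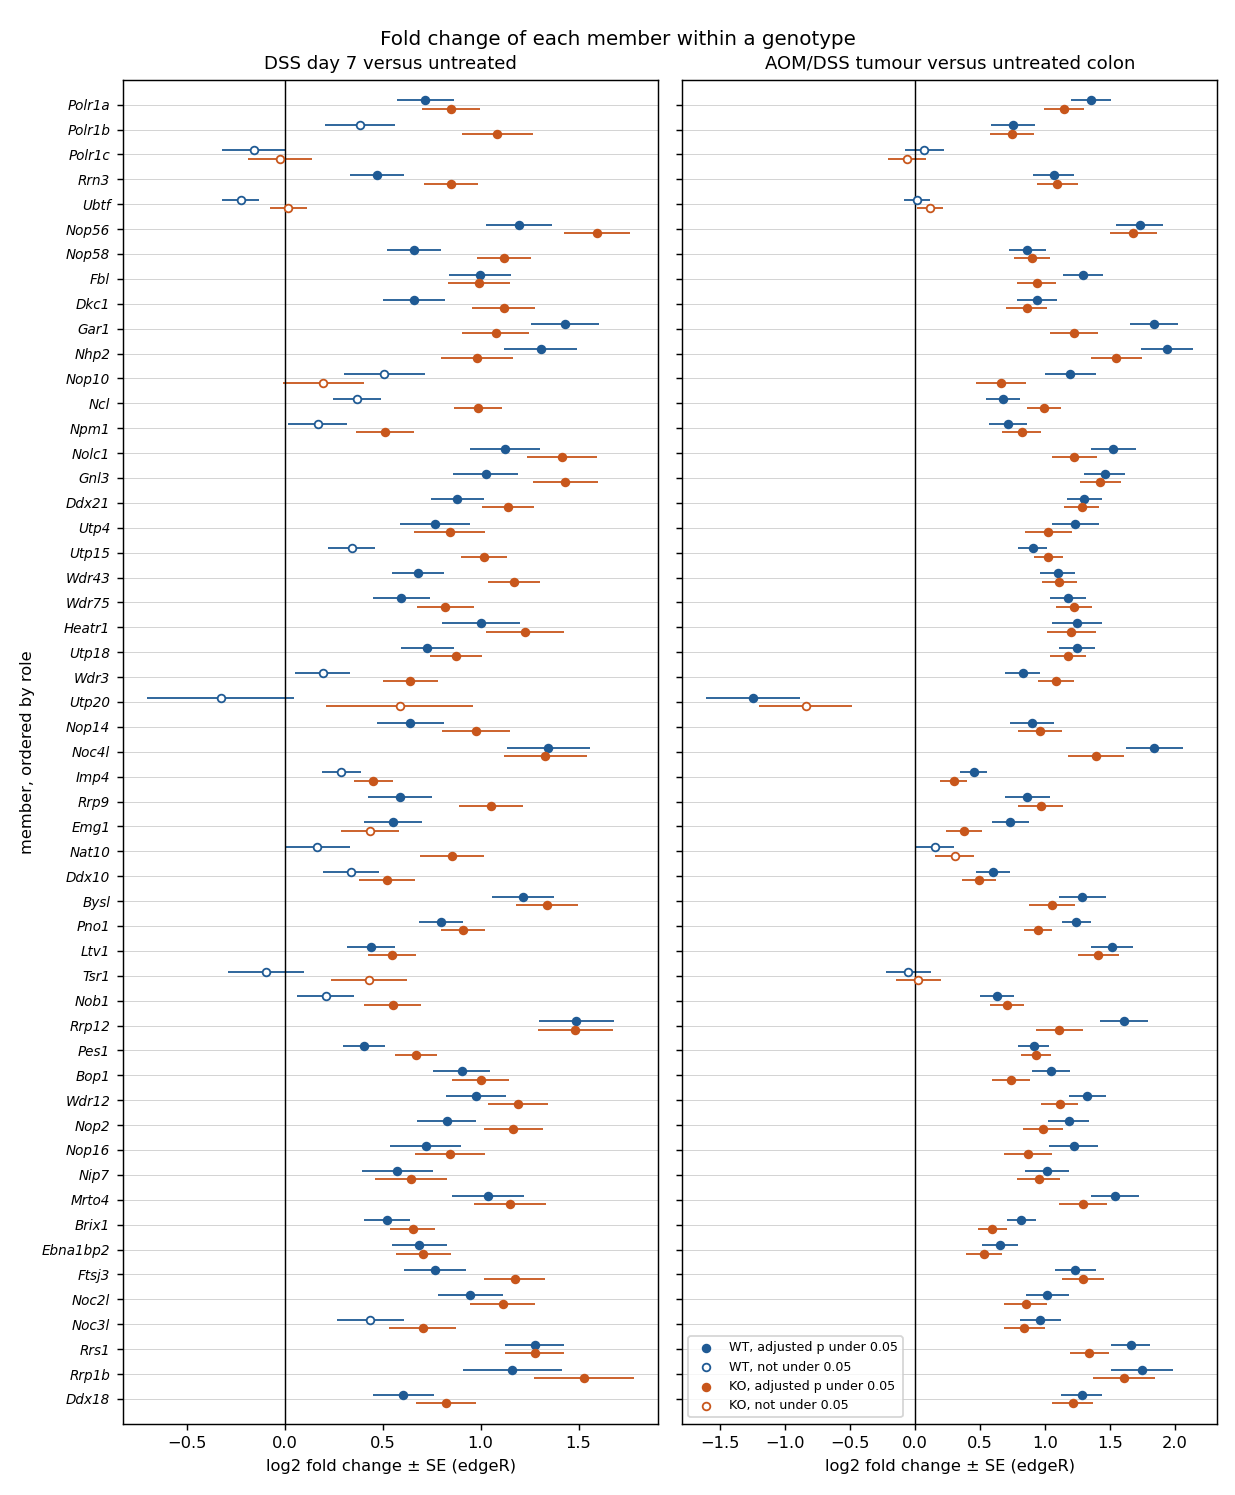
Log2 fold change ± SE of each member within WT (blue) and KO (orange), for DSS day 7 against untreated colon (left) and AOM/DSS tumours against untreated colon (right); filled points have an adjusted p under 0.05. Most points lie right of 0 in both panels; Polr1c, Ubtf and Tsr1 are open in all 4 sets, and Utp20 lies left of 0 in tumours.

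The genotypes were then compared at day 7. Of the 38 members called in WT, 37 (97.4%) were also called in KO, which is 78.7% of the 47 called there. Of all genes called higher, 730 were shared, which is 47.3% of the 1543 in WT and 47.0% of the 1552 in KO. Emg1 was called in WT alone, and Ddx10, Imp4, Nat10, Ncl, Nob1, Noc3l, Npm1, Polr1b, Utp15 and Wdr3 in KO alone. The difference in response itself was called for none of the 53 (edgeR interaction term; 0.0% of all genes called; 7 members at an unadjusted p under 0.05, all larger in KO, against 6.87% of all genes; 2 by DESeq2). The interaction was at 0.67 ± 0.17 SE, adjusted p = 0.19 for Utp15, 0.62 ± 0.17 SE, adjusted p = 0.197 for Ncl and 0.69 ± 0.23 SE, adjusted p = 0.257 for the RNA acetyltransferase Nat10. These were the members with the smallest p.

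Between the genotypes at day 7, all 53 members had a log2 difference above 0 in favour of KO (median 0.32, range 0.05 to 0.67), against 54.7% of all genes above 0 and a median of 0.05. None passed the adjusted threshold with edgeR (0.00552% of all genes called), and 25 had an unadjusted p under 0.05, against 11.7% of all genes in that direction. DESeq2 called 12. Here and below, shares of all genes are those of the main edgeR fit. DESeq2 counts have none beside them and cannot be read as particular to the members. The libraries did not overlap for 25 members, against 12.2% of all genes. The 53 genes were measured in the same 6 libraries and are not independent of each other.

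The smallest p belonged to Utp15, Nop58 and Wdr43. Utp15 was at 24.4, 23.6 and 24 CPM in WT and 32, 30.9 and 37.1 CPM in KO at day 7 (0.51 ± 0.12 SE, adjusted p = 0.0647). Nop58 was at 73.1, 81.5 and 78.3 CPM in WT and 114, 95.3 and 121 CPM in KO (0.54 ± 0.14 SE, adjusted p = 0.0647), and Wdr43 at 58, 64.6 and 55.4 CPM at WT day 7 and 75.8, 71.6 and 99 CPM at KO day 7 (0.51 ± 0.13 SE, adjusted p = 0.0647). In all 3 genes every KO library was above every WT library. Without WT day 7 replicate 3 edgeR called 6 members, without WT day 7 replicate 1 it called 1, and without WT day 13 replicate 3, KO day 13 replicate 1 and untreated KO replicate 3 together it called 6. For such counts with libraries left out, here and below, the share of all genes called in the same setting is not given.

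By role, the genotype difference at day 7 was highest for the 3 box C/D proteins (median 0.51) and the nucleolar proteins (median 0.42), and lowest for the 4 box H/ACA proteins (median 0.09). Within the box H/ACA set, Dkc1 was at 0.52 while Gar1, Nhp2 and Nop10 were at 0.11, 0.06 and 0.05. Myeloid genes were lower in KO than in WT at day 7 (37.3 to 46.9 against 103 to 319 CPM summed), proliferation genes were at 927 to 1398 CPM in KO and 477 to 952 CPM in WT, and smooth muscle was at 4385 to 5264 and 4223 to 13585 CPM. Fibroblast and matrix genes (8, summed) were at 570.2 to 893 CPM in KO and 945 to 2887 CPM in WT, and genes of enteric neurons and glia (8, summed) at 25.5 to 29 CPM in KO and 43.8 to 150.1 CPM in WT, both without overlap. The part of these lists in the difference was not tested.

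In untreated colon no member was called between genotypes (edgeR; 0.011% of all genes called; 3 members at an unadjusted p under 0.05, all higher in KO, against 6.53% of all genes, 3.94% higher and 2.59% lower; none by DESeq2). The median log2 difference was 0.10 and the range -0.24 to 0.47, with 39 members above 0 against 48.9% of all genes. The libraries did not overlap for 13 members that were higher in KO and 2 that were lower, against 9.07% and 8.82% of all genes. Gar1 was at 9.44, 8.14 and 9.95 CPM in WT and 12, 14.1 and 12.6 CPM in KO (0.47 ± 0.17 SE, adjusted p = 0.724), without overlap. Pno1, a 40S factor that works with Nob1, was at 23, 19.4 and 18.8 CPM in untreated WT and 26.6, 25.5 and 22.3 CPM in untreated KO (0.26 ± 0.11 SE, adjusted p = 0.758), and Ltv1, another 40S factor, at 22, 21.8 and 20.8 CPM in untreated WT and 26.4, 29.2 and 24.3 CPM in untreated KO (0.28 ± 0.12 SE, adjusted p = 0.758). The groups overlapped for Pno1 and not for Ltv1. Smooth muscle was at 6250 to 9294 CPM in WT and 4084 to 4651 CPM in KO, without overlap, and its part was not tested. Averaged over the 3 colon conditions, no member was called either (4.84% of all genes called, 0.961% higher and 3.88% lower; 3 members at an unadjusted p under 0.05, against 25.5% of all genes; 1 by DESeq2), and the median was 0.08. Ubtf, Ltv1 and Nop58 had the smallest p there, at 0.15 ± 0.06 SE, adjusted p = 0.114, 0.18 ± 0.07 SE, adjusted p = 0.133 and 0.17 ± 0.08 SE, adjusted p = 0.186.

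**Figure D4:**
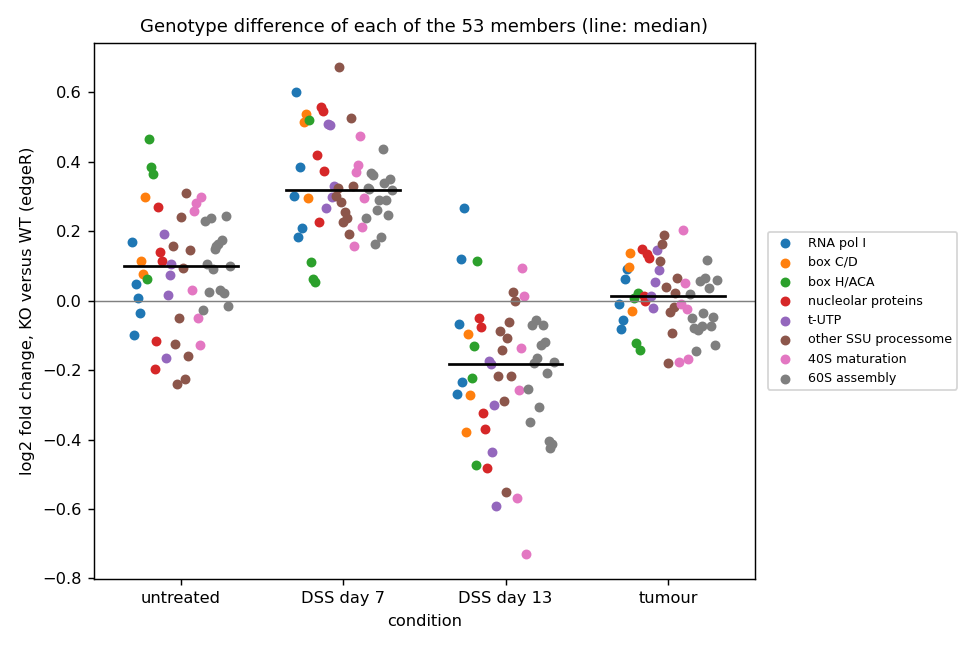
Log2 fold change of KO against WT for each of the 53 members (points, coloured by role) in untreated colon, DSS day 7, DSS day 13 and tumours; black lines are medians. The medians are 0.10, 0.32, -0.18 and 0.01, and no single point passed an adjusted p of 0.05 with edgeR, while DESeq2 called 12 members at day 7 and 5 at day 13. No share of all genes called by DESeq2 is given beside these counts.

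The day 13 groups were next set against untreated colon. In WT, 3 of 53 members were called higher than in untreated colon, against 3.21% of all genes, and none was lower (edgeR; no member lower at an unadjusted p under 0.05 or by DESeq2). That count is near the background, but 23 members were higher at an unadjusted p under 0.05, against 13.1% of all genes. The libraries did not overlap for 33 members, all higher, against 15.4% of all genes. Above 0 were 49 members, against 49.7% of all genes, and the median was 0.26. The 3 called members were Rrs1 (30.3, 22.4 and 26.9 CPM at day 13; 0.74 ± 0.15 SE, adjusted p = 0.0176), Rrp12 (17.7, 11.7 and 14.6 CPM; 0.88 ± 0.19 SE, adjusted p = 0.0218) and Noc4l, a processome protein (27.3, 15.8 and 19.2 CPM; 0.79 ± 0.21 SE, adjusted p = 0.047). Replicate 1 was the highest of the 3 libraries in all of them. The count was 0 without WT day 13 replicate 1, without untreated WT replicate 1 and without untreated WT replicate 2, 1 without untreated WT replicate 3, and 7 without WT day 13 replicate 2. DESeq2 called 11. The smooth muscle sum was 2387 to 4311 CPM at WT day 13 against 6250 to 9294 CPM untreated, and the myeloid sum 92.1 to 475 CPM against 53.7 to 62.6 CPM, both without overlap. Their part in the result was not tested.

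In KO at day 13 no member was called against untreated KO colon (edgeR; 0.0276% of all genes called; 3 members at an unadjusted p under 0.05, against 7.62% of all genes; none by DESeq2), and the median was -0.05. The smallest p belonged to Ubtf (149, 154 and 134 CPM untreated, 183, 154 and 177 CPM at day 13; 0.24 ± 0.10 SE, adjusted p = 0.547), Ltv1 (21.4, 18.5 and 25.1 CPM at day 13; -0.29 ± 0.12 SE, adjusted p = 0.589) and Pno1 (19, 18.8 and 24.1 CPM at day 13; -0.25 ± 0.11 SE, adjusted p = 0.619). For each of them the groups overlapped. Replicate 3 had the highest summed level of the KO day 13 libraries. Fibroblast and matrix genes (8, summed) were at 388 to 671 CPM at KO day 13 and 674 to 876 CPM untreated, and their part was not tested. Y-linked transcripts were present in all 3 untreated KO libraries and in no KO day 13 library. Sex and condition therefore cannot be told apart in this comparison.

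Between genotypes at day 13, no member was called (edgeR; 2.51% of all genes called, 0.652% higher and 1.86% lower; 15 members at an unadjusted p under 0.05, 14 of them lower and 1 higher in KO, against 11.4% and 6.82% of all genes; 5 by DESeq2), and 47 of 53 were below 0 (median -0.18; all genes -0.02). Rrp12 was at 17.7, 11.7 and 14.6 CPM in WT and 8.77, 6.9 and 10.7 CPM in KO (-0.73 ± 0.19 SE, adjusted p = 0.0545). The helicase Ddx21 was at 96.1, 80.9 and 83.4 CPM at WT day 13 and 53.3, 56.2 and 75.6 CPM at KO day 13 (-0.48 ± 0.13 SE, adjusted p = 0.0695), and Bysl at 23.3, 15.7 and 20.9 CPM at WT day 13 and 14.3, 12 and 13.8 CPM at KO day 13 (-0.57 ± 0.16 SE, adjusted p = 0.0704). The groups did not overlap for these 3 genes. Without WT day 13 replicate 2, 4 members were called lower. Myeloid genes were at 92.1 to 475 CPM in WT and 34.2 to 48.7 CPM in KO, and fibroblast and matrix genes at 974 to 2565 CPM in WT and 388 to 671 CPM in KO. Their part was not tested. The difference in the response to day 13 was not called for any member (interaction term; 0 members by edgeR; 0.011% of all genes; 17 at an unadjusted p under 0.05, 16 of them lower in KO, against 13.5% of all genes, 8.53% lower; 2 by DESeq2), with Rrp12 at -1.03 ± 0.27 SE, adjusted p = 0.12, Nhp2 at -0.86 ± 0.26 SE, adjusted p = 0.175 and Pno1 at -0.51 ± 0.16 SE, adjusted p = 0.18.

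Day 13 was also set directly against day 7, a comparison added after the data were seen. From day 7 to day 13 most members fell in KO colon: 45 of 53 were called lower, against 8.61% of all genes (edgeR), and none rose (1 was higher at an unadjusted p under 0.05; none by DESeq2). The median was -0.95. Nop56 went from 148, 111 and 168 CPM at day 7 to 42, 39.5 and 55 CPM at day 13 (-1.64 ± 0.17 SE, adjusted p = 9.67e-05), and Ddx21 from 149, 137 and 168 to 53.3, 56.2 and 75.6 CPM (-1.29 ± 0.13 SE, adjusted p = 9.69e-05). Pno1 went from 45.8, 45.9 and 47.6 to 19, 18.8 and 24.1 CPM (-1.16 ± 0.11 SE, adjusted p = 9.38e-05), and Wdr43 from 75.8, 71.6 and 99 to 30.3, 29.2 and 39.8 CPM (-1.3 ± 0.13 SE, adjusted p = 9.67e-05). No day 13 library of these 4 genes reached the day 7 range. All 15 60S factors, all 5 t-UTP proteins and all 3 box C/D proteins were among those that fell. The proliferation genes summed to 927 to 1398 CPM at KO day 7 and 315 to 508 CPM at KO day 13, without overlap, and their part in the fall was not tested.

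In WT no member passed the test from day 7 to day 13 (edgeR; 0.0608% of all genes called; 35 members lower at an unadjusted p under 0.05, against 9.03% of all genes; 15 lower by DESeq2), with a median of -0.40. Gar1 went from 28.5, 26.1 and 22.7 to 16.9, 12.6 and 13.4 CPM (-0.82 ± 0.17 SE, adjusted p = 0.0753), Pno1 from 37.5, 35.1 and 37.8 to 26.1, 24.7 and 23.6 CPM (-0.54 ± 0.11 SE, adjusted p = 0.0753) and Nop56 from 94.7, 116 and 96.5 to 68.6, 49.6 and 60.2 CPM (-0.75 ± 0.17 SE, adjusted p = 0.0832). The groups did not overlap for these 3. The difference between the falls was not called for any member (edgeR interaction; 0.0% of all genes; 35 at an unadjusted p under 0.05, all with the larger fall in KO, against 7.31% of all genes; 7 by DESeq2), although 51 of 53 were below 0 (median -0.55). Above 0 were 2 members, against 47% of all genes. The smallest p belonged to Wdr43 (-0.94 ± 0.19 SE, adjusted p = 0.119), Ddx21 (-0.86 ± 0.19 SE, adjusted p = 0.135) and Utp15 (-0.69 ± 0.17 SE, adjusted p = 0.156). Y-linked transcripts also separate the 2 WT groups, being present in no day 7 library and all 3 of day 13.

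Tumours were compared with untreated colon of the same genotype. In WT tumours 48 of 53 members were higher and 1, Utp20, was lower, against 27.6% higher and 21.2% lower of 19056 genes (edgeR). The median was 1.10, with 0.09 for all genes. The libraries did not overlap for 48 members that were higher, against 33.2% of all genes. These tests share the untreated libraries with those at day 7, so the 2 sets of calls are not independent.

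The smallest p belonged to Pno1, Rrs1, Gar1 and Nhp2. Pno1 was at 44.1, 49.4 and 51.2 CPM in WT tumours against 23, 19.4 and 18.8 CPM in untreated WT colon (1.24 ± 0.11 SE, adjusted p = 2.78e-07). Rrs1 was at 46.4, 43.6 and 57.3 CPM against 14.1, 16.2 and 16.3 CPM (1.66 ± 0.15 SE, adjusted p = 3.55e-07). Gar1 was at 27.3, 29.8 and 41.3 CPM (1.84 ± 0.19 SE, adjusted p = 7.64e-07), and Nhp2, its partner in the box H/ACA core, at 52.2, 64.8 and 82.4 CPM against 17.1, 16.3 and 18.5 CPM (1.94 ± 0.20 SE, adjusted p = 8.65e-07). WT tumour replicate 3 was the highest of the 3 tumours in all 4 genes.

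Utp20 was the exception. It was at 55.5, 34 and 34.9 CPM in WT tumours, all below the 106, 61 and 127 CPM of untreated WT colon (-1.24 ± 0.36 SE, adjusted p = 0.0081), and its adjusted p stayed under 0.05 in all 13 alternatives (0.00116 to 0.0439). In KO tumours it was at 51.2, 52.3 and 38.3 CPM against 78.4, 59 and 117 CPM (-0.84 ± 0.36 SE, adjusted p = 0.0582), which did not pass in the main test and passed in 4 of 13 alternatives. Its SE of 0.36 was the largest of the 53.

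The role groups in WT tumours had median log2 fold changes of 1.52 (box H/ACA, 4 of 4 called), 1.3 (nucleolar proteins, 5 of 5), 1.29 (box C/D, 3 of 3), 1.27 (40S maturation, 5 of 6), 1.18 (t-UTP, 5 of 5), 1.18 (60S, 15 of 15), 0.78 (other processome, 8 of 10 higher and 1 lower) and 0.75 (RNA polymerase I, 3 of 5). Fbl was at 72.7, 77.2 and 86.6 CPM (1.29 ± 0.15 SE, adjusted p = 3.13e-06), and Dkc1 at 41.2, 37.1 and 41.3 CPM (0.94 ± 0.16 SE, adjusted p = 9.46e-05). Both lay wholly above untreated WT. Ncl was at 461, 539.6 and 644 CPM (0.68 ± 0.13 SE, adjusted p = 0.000358), and Npm1 at 407, 426 and 532 CPM (0.72 ± 0.15 SE, adjusted p = 0.000648), so both abundant nucleolar genes passed here.

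Heatr1 was at 47.8, 42.5 and 41 CPM (1.25 ± 0.19 SE, adjusted p = 3.85e-05), and Polr1b at 32.7, 30.2 and 36 CPM (0.75 ± 0.17 SE, adjusted p = 0.00132). Nob1 was at 25.8, 25.3 and 26.4 CPM (0.63 ± 0.13 SE, adjusted p = 0.000616), with tumours that differed by about 1 CPM. Pes1 was at 65.7, 82.1 and 90.4 CPM (0.91 ± 0.12 SE, adjusted p = 7.23e-06), and Nop2 at 44.7, 53.6 and 58.9 CPM (1.18 ± 0.16 SE, adjusted p = 9.39e-06). None of these genes had a WT tumour within the untreated WT range.

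In KO tumours 48 of 53 were higher than in untreated KO colon, against 26.4% of all genes, and none was lower (edgeR; 1 member, Utp20, had an unadjusted p under 0.05 in that direction, and DESeq2 also called it). The median was 0.99, with 0.04 for all genes. All 48 were also among the 48 of WT, while of all genes called higher 3964 were shared, which is 75.5% of the 5252 in WT and 78.8% of the 5029 in KO. Ddx21 was at 181, 149 and 172 CPM in tumours against 73, 72.1 and 61.3 CPM (1.28 ± 0.13 SE, adjusted p = 1.32e-06), and Nop56 at 174, 123 and 158 against 44.9, 52 and 45.1 CPM (1.68 ± 0.18 SE, adjusted p = 1.46e-06). Utp15 was at 37.4, 30.9 and 32.5 against 16, 17.5 and 16 CPM (1.03 ± 0.11 SE, adjusted p = 2.28e-06), and Gnl3 at 65.5, 56.3 and 65.4 against 22.8, 25.3 and 21.5 CPM (1.43 ± 0.16 SE, adjusted p = 2.39e-06). In these 4 genes each KO tumour was above each untreated KO library.

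Among the other members followed by library, Fbl was at 79.6, 68.4 and 83.5 CPM in KO tumours (0.94 ± 0.15 SE, adjusted p = 7.09e-05), Ncl at 609, 582 and 629 CPM (0.99 ± 0.13 SE, adjusted p = 1.12e-05) and Npm1 at 488, 411 and 477 CPM (0.82 ± 0.15 SE, adjusted p = 0.000206). Dkc1 was at 44.9, 33.1 and 42.1 CPM (0.86 ± 0.16 SE, adjusted p = 0.000219), with replicate 2 the lowest. Heatr1 was at 55.1, 41.8 and 42.5 CPM (1.2 ± 0.19 SE, adjusted p = 5.97e-05), with replicate 1 the highest. Polr1b was at 33, 27.9 and 32.5 CPM (0.74 ± 0.17 SE, adjusted p = 0.00145), Nob1 at 25.8, 26.6 and 23.7 CPM (0.71 ± 0.13 SE, adjusted p = 0.000229), Pes1 at 84, 73.8 and 83.1 CPM (0.93 ± 0.12 SE, adjusted p = 6.95e-06) and Nop2 at 48.5, 41 and 52.6 CPM (0.99 ± 0.16 SE, adjusted p = 5.93e-05). All of these rose in KO tumours as they did in WT.

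No member was called between KO and WT tumours (edgeR; 0.0% of 17245 genes called; no member at an unadjusted p under 0.05, against 3.79% of all genes, 1.6% higher and 2.19% lower; none by DESeq2). Axin1, the targeted gene, also missed the threshold in this fit (-1.60 ± 0.11 SE, adjusted p = 0.0866). The absence of calls therefore cannot show that the members did not differ. The median log2 difference was 0.01, and the 53 values lay between -0.18 and 0.20, with 28 above 0 against 48.6% of all genes. The libraries did not overlap for 1 member that was higher in KO and none that was lower, against 4.49% and 5.08% of all genes. The smallest p belonged to Wdr3 (36, 38.9 and 42.2 CPM in WT, 49.1, 39.5 and 42.1 CPM in KO; 0.16 ± 0.12 SE, adjusted p = 0.942), Wdr75 (36.2, 42.8 and 40.2 CPM in WT tumours and 48.8, 40.1 and 42.7 CPM in KO tumours; 0.15 ± 0.12 SE, adjusted p = 0.942) and Rrp12 (22.3, 23.4 and 25.8 CPM in WT tumours and 22.7, 17.6 and 23.2 CPM in KO tumours; -0.17 ± 0.15 SE, adjusted p = 0.942). All 3 overlapped. A genotype difference in the rise from untreated colon to tumour was not called either (edgeR interaction; 0 members, 0.0% of all genes; 1 member at an unadjusted p under 0.05, against 8.67% of all genes; none by DESeq2). Gar1 was at -0.61 ± 0.25 SE, adjusted p = 0.515, Nop10 at -0.53 ± 0.27 SE, adjusted p = 0.6 and Rrp12 at -0.49 ± 0.25 SE, adjusted p = 0.606 there.

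The tumours held less smooth muscle RNA than any colon library (193 to 379 CPM against 2387 CPM or more), and their myeloid sum was 219 to 405 CPM against 46.3 to 62.8 CPM in untreated colon. The 10 epithelial genes summed to 5975 to 14230 CPM in tumours and 13338 to 19877 CPM in untreated colon, with 1 WT tumour inside the untreated range. The proliferation genes were at 945 to 1310 CPM in tumours against 225 to 606 CPM untreated. The part of these differences in the rise of the 53 genes was not tested.

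**Figure D5:**
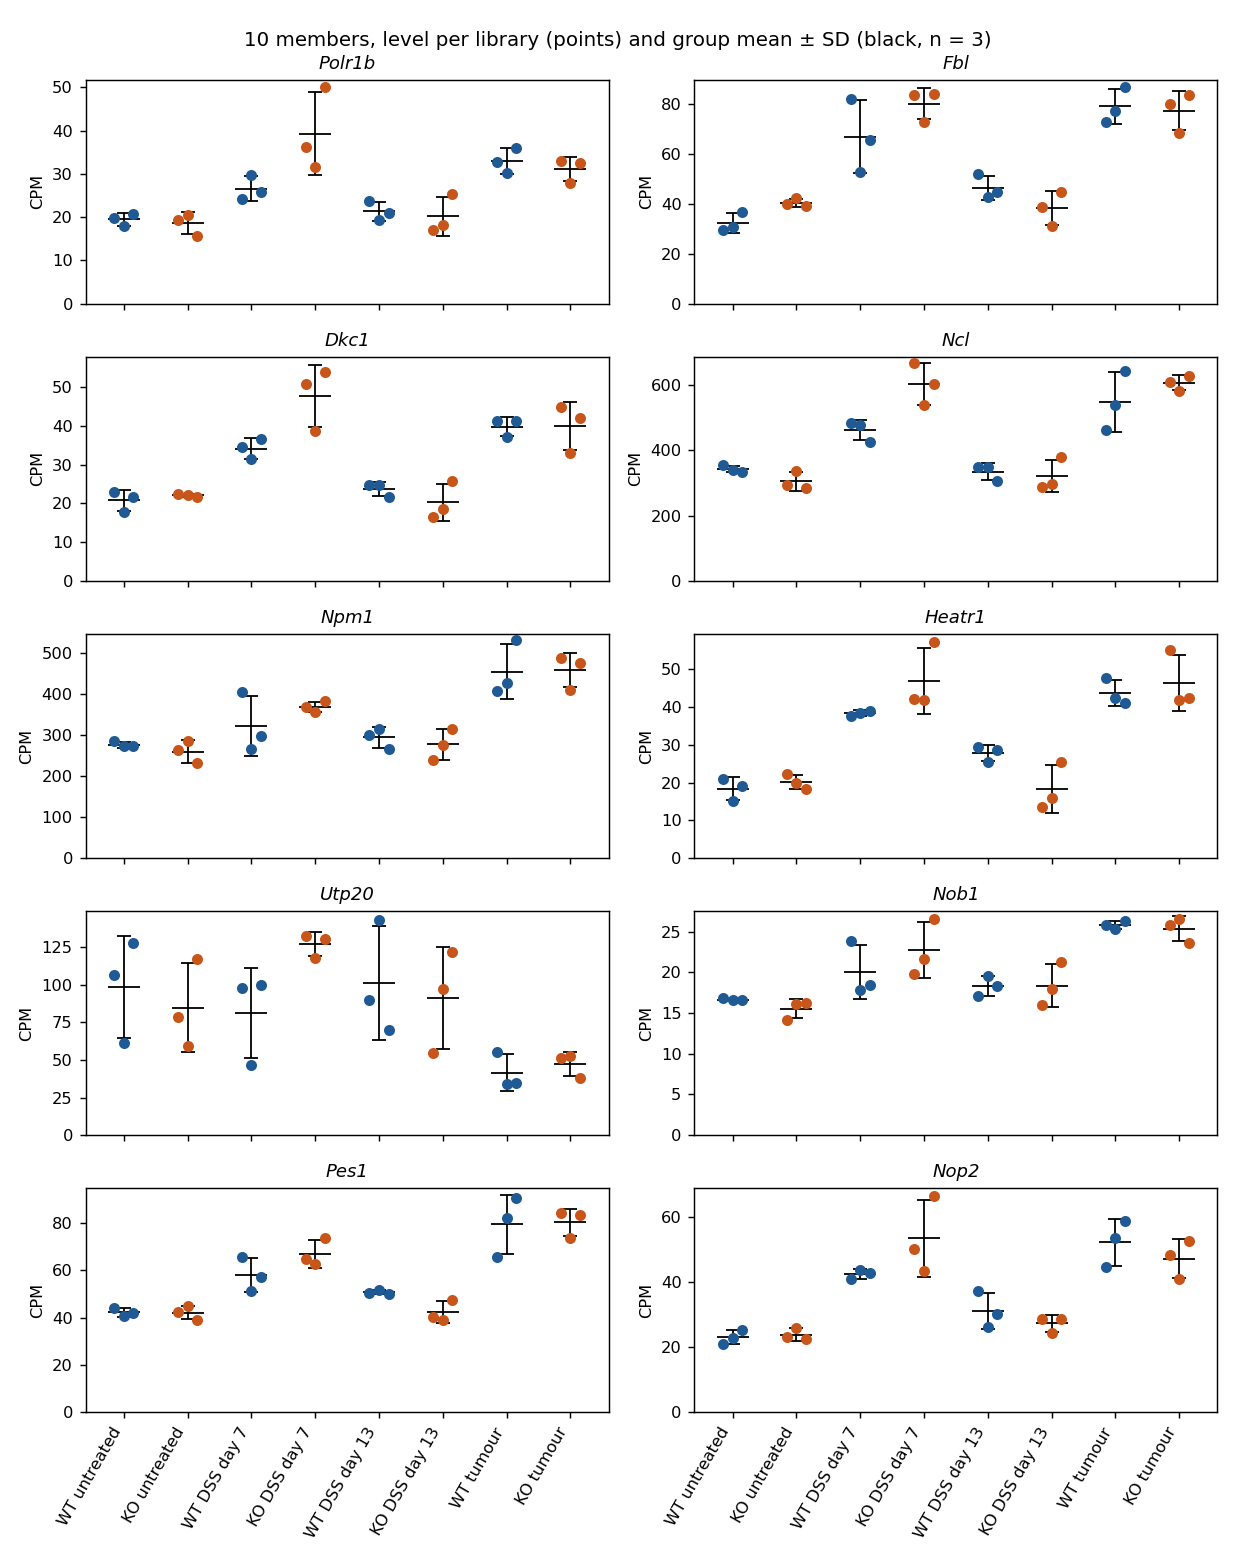
Level (CPM, y axes from 0) of 10 members, at least 1 from each role, in each library (points, blue WT, orange KO) with the mean ± SD of 3 (black). Of the 10, 9 are higher in all 6 tumours than in all 6 untreated libraries, and Utp20 is lower in all 6.

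Set against the injured colon of day 7, a comparison also added after the data were seen, WT tumours were higher in 18 members and lower in 1, against 16.9% and 17.5% of all genes (edgeR; median 0.35). The largest changes by p were Ltv1 (28, 31.3 and 31.9 CPM at day 7, 44.7, 72.4 and 67.7 CPM in tumours; 1.02 ± 0.16 SE, adjusted p = 8.86e-05), Utp15 (24.4, 23.6 and 24 CPM at WT day 7 and 34.3, 33.7 and 34.4 CPM in WT tumours; 0.51 ± 0.11 SE, adjusted p = 0.00196), Wdr3 (25.3, 27.2 and 26 CPM at WT day 7 and 36, 38.9 and 42.2 CPM in WT tumours; 0.58 ± 0.14 SE, adjusted p = 0.0031) and Ddx18, a 60S helicase (38.7, 35 and 35.7 CPM at WT day 7 and 47.5, 59.7 and 61 CPM in WT tumours; 0.62 ± 0.16 SE, adjusted p = 0.00486). Every tumour was above every day 7 library for these 4. Utp20 was the member that fell (-0.97 ± 0.36 SE, adjusted p = 0.0432), with overlap, and its adjusted p was above 0.05 in 7 of 13 alternatives, among them those without WT day 7 replicate 1 (0.125) or 3 (0.147) and without WT tumour replicate 2 (0.142) or 3 (0.141). In all, 9 members were called without WT day 7 replicate 3 or WT tumour replicate 3 and 10 without WT tumour replicate 2. With only the groups compared in the fit, 2 members were called, Ltv1 and Wdr3, and Utp15 (adjusted p = 0.0532) and Ddx18 (adjusted p = 0.0528) were not. Without the filter on low counts 12 were called.

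In TMM-scaled counts KO tumours and KO day 7 colon were close: 5 members were higher and 2 lower, against 21.9% and 20.8% of all genes (edgeR), with a median of 0.01. Both shares are below the background of this comparison. In deposited TPM the summed level was 2473 to 2941 at KO day 7 and 3256 to 4294 in KO tumours, without overlap. Ltv1 (34, 38.9 and 43.8 CPM at day 7, 71.9, 61.4 and 79.1 CPM in tumours; 0.87 ± 0.16 SE, adjusted p = 0.00027), Wdr3 (28.9, 30.4 and 36.5 CPM at KO day 7 and 49.1, 39.5 and 42.1 CPM in KO tumours; 0.45 ± 0.14 SE, adjusted p = 0.0125), Nhp2 (41.5, 43.8 and 50.7 CPM at KO day 7 and 75.5, 58 and 68.8 CPM in KO tumours; 0.57 ± 0.19 SE, adjusted p = 0.022) and Wdr75 (27.9, 30.7 and 40.8 CPM at KO day 7 and 48.8, 40.1 and 42.7 CPM in KO tumours; 0.40 ± 0.14 SE, adjusted p = 0.0226) were higher in tumours. The last 3 lost the call in 2, 4 and 5 of 13 alternatives. Utp20 (-1.42 ± 0.36 SE, adjusted p = 0.00411) and Nat10 (52.5, 44.1 and 54.3 CPM at KO day 7 and 35.9, 31.4 and 36.2 CPM in KO tumours; -0.54 ± 0.15 SE, adjusted p = 0.00737) were lower. Without KO day 7 replicate 1 or KO tumour replicate 1, 3 members were called.

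A few members were not called where most others were. Polr1c, a subunit shared by RNA polymerases I and III, lay between 24 and 42.8 CPM in all 24 libraries, and Ubtf between 124 and 183 CPM. Neither was called by edgeR in any comparison listed here, and DESeq2 called Ubtf for the colon average of KO against WT (0.16, adjusted p = 0.0261). Tsr1, a factor of late 40S maturation, lay between 51.7 and 105 CPM and was not called against untreated colon at day 7 (-0.09 in WT, 0.43 in KO) or in tumours (-0.05 and 0.03). Nat10 rose at KO day 7 (0.85) and was not called in tumours (0.15 in WT, 0.31 in KO). A value that misses the threshold does not show that a gene did not change.

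Lists of other genes of the pathway were counted in the same way. Of all genes tested, 8.52% were higher at WT day 7, 8.57% at KO day 7, 27.6% in WT tumours and 26.4% in KO tumours, and 7.77%, 4.07%, 21.2% and 23.5% were lower. Of 36 further small subunit factors, 12 were higher at WT day 7, 25 at KO day 7, 25 in WT tumours and 29 in KO tumours, with median log2 fold changes of 0.27, 0.48, 0.56 and 0.54, and 2 were lower in tumours of each genotype. Mphosph10, a processome protein, was among those with the smallest p, with 0.94 ± 0.13 (SE) at WT day 7 and 1.23 ± 0.13 at KO day 7. Of 40 further large subunit factors, 20, 27, 30 and 30 were higher and 2, 1, 2 and 3 lower (medians 0.42, 0.70, 0.81 and 0.72). Mybbp1a rose by 1.56 ± 0.17 in WT tumours, while Sbds, which acts when the 60S subunit becomes active, fell by 0.99 ± 0.12 there. Nop53, another 60S factor, fell at WT day 7 (-0.65 ± 0.10) and KO day 7 (-0.67 ± 0.10).

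Of the 10 other RNA polymerase I subunits and factors, 2 and 3 were higher at day 7 in WT and KO, and 4 and 5 in WT and KO tumours, with 1 lower in each kind of tumour (medians 0.14, 0.33, 0.31 and 0.31). Polr1e, a subunit of the enzyme, rose by 0.77 ± 0.19 at WT day 7 and 1.32 ± 0.20 in WT tumours. Of the 12 exosome genes, whose products trim precursor RNA, 6, 8, 11 and 9 were higher (medians 0.49, 0.67, 0.62 and 0.56), with 1 lower in each kind of tumour. Dis3, a nuclease of the exosome, rose by 0.70 ± 0.12 at WT day 7 and 1.39 ± 0.12 at KO day 7.

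Of the 40 cytosolic ribosomal proteins, none was higher and 7 were lower at WT day 7 (median -0.42), against 8.52% higher and 7.77% lower of all genes, and at KO day 7 none passed in either direction (median -0.27). In WT tumours 2 were higher and none lower (median -0.07), and in KO tumours 1 was higher and 3 lower (median -0.16). Rpl3 fell by 0.76 ± 0.18 at WT day 7, and Rps2 rose by 0.41 ± 0.16 in WT tumours. Many ribosomal protein genes have near-identical processed copies, between which reads may be split. At the library level, the lowest sums of WT day 7 were in replicates 2 and 3.

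Myc rose in the same conditions as most of the 53 genes. Its mean was 21.1 ± 4.36 CPM (SD, n = 3) in untreated WT, 59.3 ± 13.3 at WT day 7, 30.9 ± 2.87 at WT day 13 and 104 ± 25.1 in WT tumours, and 21.3 ± 1.66, 59.1 ± 24.9, 28.5 ± 7.08 and 84.3 ± 21.5 CPM in the same order in KO. The rise at day 7 was 1.43 ± 0.26 (SE; adjusted p = 0.0034) in WT and 1.48 ± 0.26 (adjusted p = 0.00225) in KO. Between KO and WT at day 7 the log2 difference of Myc was 0.03 ± 0.26 (SE; adjusted p = 0.946). The libraries ranged from 44.3 to 69.5 CPM in WT and from 38 to 86.6 CPM in KO. Whether the level of Myc bears on that of the 53 genes was not tested. In tumours the rise of Myc was 2.30 ± 0.28 in WT (adjusted p = 5.04e-06) and 1.99 ± 0.28 in KO (adjusted p = 2.08e-05). Its partner Max fell by 0.52 ± 0.14 at WT day 7, by 1.18 ± 0.14 in WT tumours and by 1.27 ± 0.14 in KO tumours. Mycl fell by 1.08 ± 0.31 at WT day 7, and Mxd4 by 0.87 ± 0.16 at WT day 7 and 0.86 ± 0.16 at KO day 7. Of the network, Myc alone was called higher at day 7, against 8.52% of all genes in WT and 8.57% in KO. Of the 12 genes of the Myc network, 4 and 5 were higher and 4 and 5 lower in WT and KO tumours, against 27.6% and 26.4% of all genes higher and 21.2% and 23.5% lower.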

How the data were processed

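RNA sequencing of 24 libraries was analysed. Per the submitters' processing notes the tools were STAR 2.7.6a and RSEM 1.3.1 with GRCm38; neither annotation release nor strand setting was stated there. The authors deposited RSEM's expected count and TPM per gene and library, per the file headers. Without strand, reads of overlapping opposite genes (such as Idh3b at Nop56) and of snoRNA genes inside members cannot be told apart. Symbols were matched for 55141 of 55487 identifiers, and the other 346 held at most 0.0742% of a library's counts.

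Expected counts were rounded and tested with edgeR 4.0.16 (R 4.3.3): TMM factors, filterByExpr (minimum count 10, total 15), robust quasi-likelihood F test, Benjamini-Hochberg adjustment over all genes of a comparison, threshold 0.05. The colon fit held 18 libraries (18102 genes), the tumour fit 6 (17245) and the fit across tissues 24 (19056). SE is the fold change over the root of F. Levels are CPM. DESeq2 1.42.0 was an alternative. Replicates were numbered in deposit order and pair nothing. Between replicates the chi-square per gene was 14.7 or more, so none was a repeat sequencing of the same library. Whether any of them shared a mouse cannot be told from this value. The script was tested on simulated counts. Members and lists were chosen with earlier results of these data known. The 10 members followed by library and, in each comparison, up to 4 called members per direction with the smallest p (or 3 where none was called) are given in full, and up to 3 called genes of each other list were eligible for naming. Of the other lists only those the results turn on are given.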

Additional observations from a re-analysis of the deposited data

How the results depend on the processing

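With 3 libraries a group, calls near the threshold moved with the method, while directions of the main rises did not: the counts at day 7 and in tumours against untreated colon of the same genotype kept their direction in all alternatives run. DESeq2 called 12 members for KO against WT at day 7, 5 at day 13 and 1 for the colon average, 11 for WT day 13 against untreated, 15 for WT day 13 against day 7, and 2, 2 and 7 for the genotype interactions at day 7, at day 13 and from day 7 to day 13. With RLE size factors 6 members were called for WT day 13 against untreated. With only the groups compared in the fit, 0 were called there and 2 for WT tumours against day 7, where no filter on low counts gave 12. The Y-linked covariate gave 23 for WT day 7 against untreated. Without WT day 13 replicate 3, KO day 13 replicate 1 and untreated KO replicate 3 together, 6 were called for KO against WT at day 7. The shares of all genes in the text are those of the main edgeR fit. Member counts with DESeq2, other settings or left-out libraries have none beside them. They therefore do not show a change particular to the members.

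Leaving out 1 library at a time gave 0 to 6 members for KO against WT at day 7, 0 to 4 at day 13, 0 to 1 for the colon average and for the interaction at day 13, 0 to 7 for WT day 13 against untreated, 9 to 23 for WT tumours against day 7, 3 to 10 for KO tumours against day 7, 29 to 36 and 41 to 46 for day 7 against untreated in WT and KO, and 49 and 46 to 48 for tumours in WT and KO. Npm1 at WT day 7 ranged from -0.034 without WT day 7 replicate 1 to 0.297 without replicate 2. Of 1493 alternatives for 107 values of single members, 1396 kept the direction and the outcome of the test, whether called or not called. A call was lost in 61 and gained in 35, and the direction turned in 1. The 1396 include values that were not called in the main test, so they do not count calls kept. Comparisons from day 7 to day 13 and from day 7 to tumours were added after seeing the data. No paired analysis was possible because the replicate numbers follow the order of deposit and tie no library of one group to a library of another.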
